A study of Mus musculus with 6 samples.

Results

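Intermediate filament genes encode the cytoskeletal proteins of the type I and type II keratins, the type III proteins vimentin and desmin, the type IV protein nestin and the type V nuclear lamins. The 8 genes described here, Vim, Des, Nes, Krt8, Krt18, Lmna, Lmnb1 and Lmnb2, were chosen by gene symbol from the 48956 genes with summed counts, and Vim was in addition selected on these same data, for its counts of 0 in every delipidated library. The values of Vim in the 2 groups are therefore a description without a test. The other 7 were chosen by symbol with results of these data known.

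The 6 RNA libraries came from pools of 3 mouse 2-cell embryos, with 3 pools of control and 3 of delipidated embryos. All embryos were wild type F1 (C57Bl/10 X CBA/H) and were cultured in vitro in KSOM free of fatty acids from 0.5 to 2.0 dpc, sampled on day 2. The treatment field of the control samples names culture alone, although the protocol of lipid removal is attached to all 6 samples. Delipidated zygotes had been treated with cytochalasin B at 50 µg/mL and a sucrose solution, spun at 4200 g and then at 9500 g for 10 min each, and freed of their lipid droplets by aspiration through a laser-made opening in the zona pellucida. The sources used here do not say that the control zygotes went through the drug, the spins or the opening of the zona, so lipid removal and these steps cannot be told apart. The embryos of 6 hormonally stimulated F1 females, mated with F1 males, were mixed and distributed at random, so p-values measure only the spread between these pools. Counts assigned to genes numbered 12121609, 16101041 and 12901892 for the controls, against 19950709, 16242020 and 14617065 for the delipidated pools. Delipidated replicate 1 was the deepest library, yet in the delipidated libraries 17080, 19397 and 20147 genes had a count, against 22844, 22426 and 20571 in the controls.

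The label of 2-cell embryos was checked against its markers. All 16 listed markers of 2-cell genome activation had counts, 15 of them in every library, and all 17 matched oocyte markers had counts in every library. Their most abundant genes were Sp110, at 190 to 438 CPM, and Zbed3, at 1444 to 4673 CPM, where CPM are counts relative to the library size after TMM scaling. The medians of the log2 fold changes of these lists, delipidated over control, were 0.04 and 0.09. The smallest unadjusted p-values of these lists belonged to Tdpoz4, with 8.22, 9.66 and 32.7 CPM against 28.3, 41.6 and 14.5, to Sp110, and to the oocyte genes Npm2, with 199, 165 and 241 CPM against 219, 243 and 336, and Zp2, with 92.9, 60.8 and 126 against 45.1, 83.7 and 82.5 CPM. All 4 overlapped between the groups.

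Intermediate filament proteins share a coiled-coil rod and assemble into ropelike filaments without nucleotide hydrolysis. Lamins line the inner nuclear membrane, B-type lamins are found in nearly all nuclei and A-type lamins mostly in differentiated cells. Cytoplasmic filaments are sparse in mammalian eggs and cleavage stages, Krt8 and Krt18 mark the trophectoderm that forms later, and Vim is abundant in mesenchymal cells.

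Vim encodes vimentin, the main filament protein of mesenchymal cells. Its counts were 152, 145 and 300 in control embryos against 0, 0 and 0 in delipidated embryos. This corresponded to 12.9, 8.81 and 22.9 CPM, or 14.9 ± 7.26 CPM (SD, n = 3), in the control embryos. Control replicate 3 was the highest and control replicate 2 the lowest, and without control replicate 3 the mean was 10.8 CPM. A count of 0 allows up to 3 counts, that is 0.149, 0.185 and 0.213 CPM in the delipidated libraries. The floor covers counting error only. In bulk libraries, fewer cells of a type and less RNA per cell cannot be told apart.

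Vim (ENSMUSG00000026728) lies on the forward strand of GRCm38 at chr2:13573927-13582826 and was divided into 23 exonic parts, pieces of its exons that do not overlap each other. No other annotated gene shares them. In the control libraries 15, 14 and 14 parts had a count, 11 of them in all 3 libraries, and in the delipidated libraries 0 parts had one. Of the 13 parts that overlap the coding sequence, 12, 11 and 13 had counts, and they held 96.1%, 96.6% and 98.7% of the counts of the gene. The 4 parts found only in retained introns or noncoding transcripts, 2525 bases against 1750 in the coding parts, held 3, 1 and 0 counts. The counts thus lay almost wholly on parts with coding sequence in all 3 control libraries. They were spread over many parts, and the largest part held 13.2%, 16.6% and 18.7% of the counts of the library.

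The control libraries differed in where along the transcript the counts lay. Exons 1 to 3 of Vim-201, a transcript of 9 exons, held 34.9% of the coding counts of control replicate 1, 65.0% in replicate 2 and 12.5% in replicate 3. Control replicate 2 was high at the 5′ end, with 24 counts on chr2:13574834-13574994 at the end of exon 1, where replicates 1 and 3 had 15 and 6. Control replicate 3 was high from exon 4 on, and its largest value was 56 counts on exon 6, chr2:13580018-13580238, where replicates 1 and 2 had 20 and 10. Exon 6 was the part with most counts over all libraries. It was taken alone, since within 1 part a read is counted once. Its control mean was 2.19 CPM, 12.0 times the mean of 0.182 CPM that 3 counts give in the delipidated libraries. Without control replicate 3 this ratio was 6.32. The ratio describes the counts by which Vim was selected and is no estimate of an effect.

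**Figure D1:**
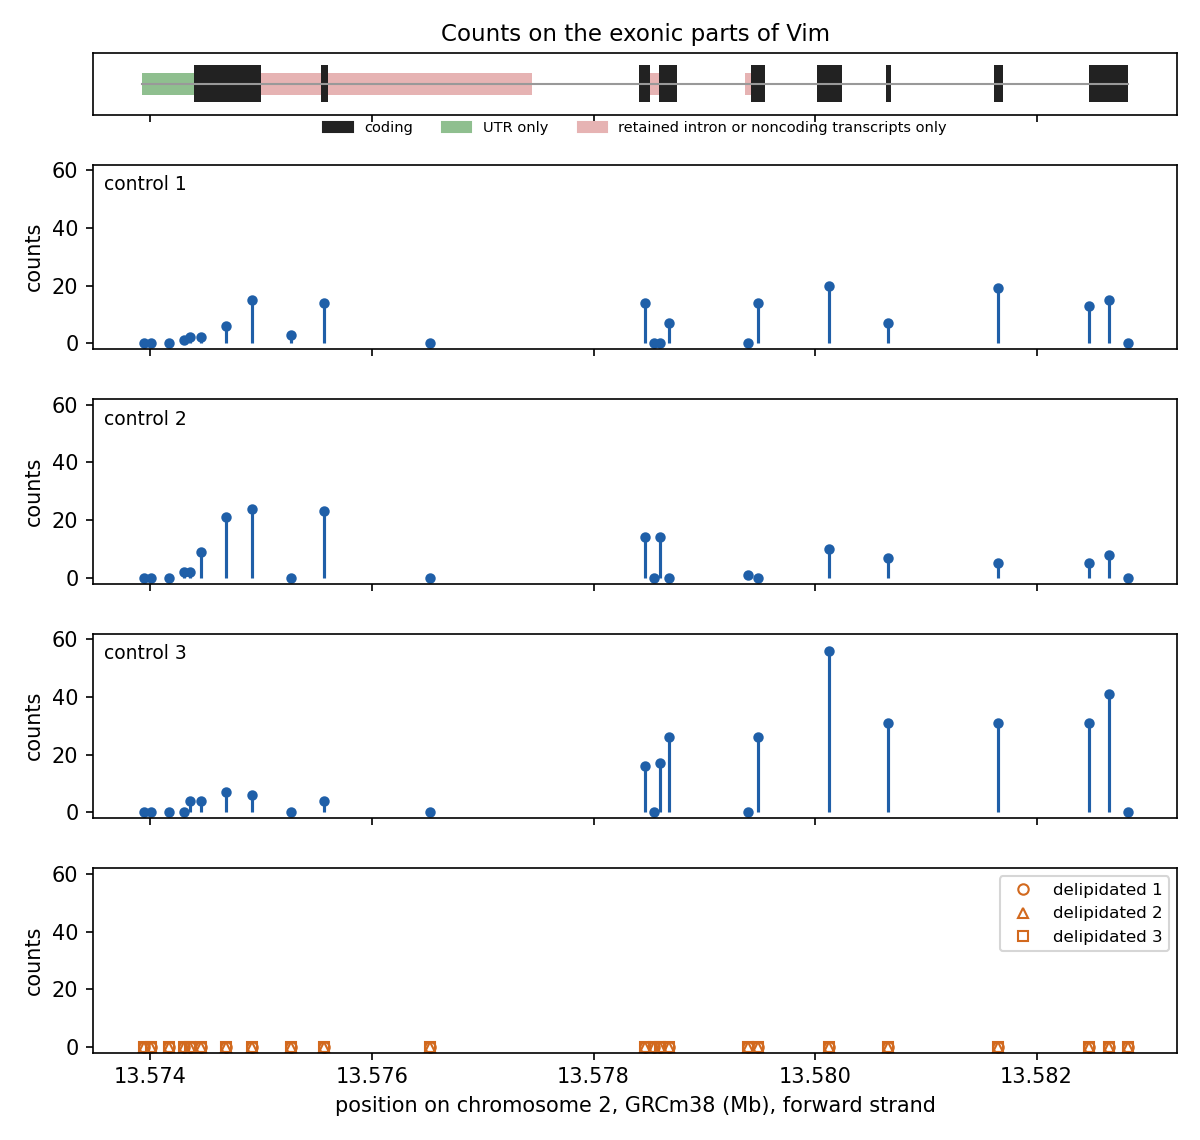
Counts of each library (y axis) on the 23 exonic parts of Vim along chromosome 2 of GRCm38 (x axis, Mb), with the parts drawn to scale on top and each point at the middle of its part. The 3 control libraries have counts on coding parts throughout the gene, up to 56 in control replicate 3, and the 3 delipidated libraries are at 0 on every part.

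The coding parts of Vim between 30 and 100 bases with counts in all 3 control libraries are printed to show which stretches were sequenced in every control pool; they are given 5′ to 3′ on the forward strand as in transcript Vim-201 of GENCODE M21. Exon 2, chr2:13575541-13575601, had 14, 23 and 4 counts. Exon 3, chr2:13578413-13578508, had 14, 14 and 16, the most even of these parts. Exon 7, chr2:13580640-13580683, had 7, 7 and 31. Exon 8, chr2:13581613-13581698, had 19, 5 and 31 counts, and the part that follows it in the spliced transcript, the first 6 bases of exon 9 at chr2:13582473-13582478, had 13, 5 and 31. Capitals mark these 6 bases, a part far shorter than a read, so that a read counted there also covers a neighbouring part.
exon 2: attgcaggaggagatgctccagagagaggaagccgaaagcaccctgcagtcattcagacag
exon 3: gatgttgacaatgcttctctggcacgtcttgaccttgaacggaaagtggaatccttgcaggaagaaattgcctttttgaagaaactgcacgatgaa
exon 7: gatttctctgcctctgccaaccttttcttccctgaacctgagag
exons 8 and 9: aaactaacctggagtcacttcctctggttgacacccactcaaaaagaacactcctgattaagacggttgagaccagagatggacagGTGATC

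Des encodes desmin, the type III filament protein of muscle. Its counts were 2, 8 and 14 in the controls, or 0.170, 0.486 and 1.07 CPM, against 0 in every delipidated pool. All control values were above 0, but too low for Des to pass the filter, and no fold is given. The counts lay on different exons in each control library: 1 part held those of replicate 1, another those of replicate 2, and 2 neighbouring parts with 7 counts each those of replicate 3. Vim and Des were 2 of the 8 genes with counts in every control library and in no delipidated library. Among the 16217 genes with counts in every control library, 321 (1.98%) had none in any delipidated library, and in the opposite direction 29 of 14358 genes (0.202%). Nothing is read from the 2 of 8, since Vim was selected on it.

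The 5 genes whose log2(CPM + 1) correlated most with that of Vim over the 6 libraries were Kcnn3, Gm42600, 4930523C07Rik, ENSMUSG00000102798 and Tmsb4x, with Pearson's r from 0.992 to 0.999. These values share library and depth and rest largely on the difference between the 2 groups. Kcnn3, a potassium channel gene, had 16, 20 and 25 counts in the controls and 0 in each delipidated library. Tmsb4x, the gene of an actin-binding thymosin, had 53, 73 and 142 counts in the controls and 0, 3 and 0 in the delipidated libraries, with control replicate 3 the highest as for Vim. Gm42600 had 18, 23 and 29 against 7, 5 and 6.

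Markers of cells that can adhere to eggs are given beside Vim. The methods of the study state that the cumulus was taken off the zygotes with hyaluronidase and washes. Of 24 markers of cumulus and granulosa cells, 14, 12 and 15 had a count in controls, against 7, 10 and 8 in delipidated pools. Their summed level was 209, 262 and 357 CPM in the controls and 259, 245 and 166 CPM in the delipidated libraries. The most abundant of them was Nr5a2, a nuclear receptor gene also transcribed by cleavage embryos. Without Nr5a2 the sums were 25.9, 30.8 and 143 CPM against 12.7, 43.7 and 19.4 CPM. Control replicate 3 stood apart through 2 steroid synthesis genes, named after their values were seen: Cyp11a1 had 4, 0 and 653 counts in the controls and Hsd3b1 had 5, 0 and 607, with at most 4 counts of either in any delipidated library. In the same list, the cumulus expansion gene Ptx3, the hyaluronan receptor gene Cd44 and the granulosa factor gene Foxl2 were at 0 in all 6 libraries. The 2 smallest unadjusted p-values of the list belonged to Star, with 0, 80 and 82 counts against 0, 10 and 43, and to Kitl, with 23, 32 and 2 against 5, 157 and 0. Both genes overlapped between the groups. Of 6 markers tested in this list, 3 had positive and 3 negative log2 fold changes, with a median of -0.03. Over all 24 markers, 8 had counts in a control library and 0 in every delipidated library, and 1 had the reverse pattern. The share of all genes with either pattern is not given here. Every control library had more genes with a count than any delipidated library, so nothing is read from this tally.

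Fibroblast and stromal markers summed to 38.9, 49.8 and 71.1 CPM in the controls and 66.6, 63.2 and 41.4 CPM in the delipidated libraries, and without their most abundant gene Fn1 to 24.4, 22.1 and 42.6 CPM against 1.94, 17.6 and 24.3 CPM. None of the 15 was at 0 in all 6 libraries. Of the 7 tested, 2 had positive and 5 negative log2 fold changes, with a median of -1.46, beside -0.00058 over all genes tested. By edgeR 2 of the 7 had an unadjusted p under 0.05, against 2.89% of all genes tested. Called genes numbered 0 with edgeR and with DESeq2. The collagen gene Col1a1 had 11, 26 and 42 counts in the controls and 0 in each delipidated library. This was the pattern of 1.98% of all genes counted in every control library. Sparc, the gene of a matrix glycoprotein, had 91, 31 and 335 counts against 0, 8 and 32, highest in control replicate 3 and overlapping by 1 library. Col1a1 and Sparc were the 2 with an unadjusted p under 0.05 by edgeR. Both passed the filter through their control counts, so nothing is read from them. Postn, the periostin gene, named after its values were seen, had 7.21, 5.17 and 4.74 CPM against 0, 8.83 and 14.7 CPM. Abundant transcripts of somatic cells summed to 67.6, 59.4 and 148 CPM in the controls and 37.8, 40.8 and 40.2 CPM in the delipidated libraries, and without the most abundant gene, Tmsb10, to 43.8, 36.2 and 105 CPM against 16.4, 14.6 and 20.6 CPM. Every control library was above every delipidated library in this list. Of its 14 genes 8 were tested, all 8 with negative log2 fold changes and a median of -2.11, beside -0.00058 over all genes tested. By edgeR 0 of these 8 were called and 4 had an unadjusted p under 0.05, against 2.89% of all genes tested. DESeq2, which called 0.237% of all genes, called Tmsb4x among the 8 and, outside them, Tpm2, a tropomyosin gene with 2, 105 and 12 counts against 0 in each delipidated library, most of them in control replicate 2. Lgals1, the galectin 1 gene, had 34, 146 and 108 counts against 24, 2 and 7. Tmsb4x and Lgals1 passed the filter through their control counts, so the tally of the 8 is a description without a test.

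In the remaining marker lists, as in the cumulus and fibroblast lists, the sums of the groups overlapped. Leukocyte markers, led by Coro1a at 0 to 6.36 CPM, summed to 27.2, 17.9 and 15.4 CPM in the controls and 10.9, 13.2 and 17.4 CPM in the delipidated libraries, and S100a8 was at 0 throughout. The 2 with the smallest p-values were C1qb, with 14, 0 and 0 counts against 17, 31 and 24, and Coro1a. Of 8 leukocyte markers tested, 2 had positive and 6 negative log2 fold changes, with a median of -0.65. Lyz2, not tested and named after its values were seen, had 2, 8 and 8 counts against 0 in each delipidated library. This was the pattern of 1.98% of all genes counted in every control library. Endothelial markers, led by Pecam1, summed to 91.5, 83.7 and 79.0 CPM against 109, 56.0 and 127 CPM, and those of oviduct epithelium, led by Epcam, to 84.5, 229.6 and 121 CPM against 168, 199 and 113 CPM, with Dynlrb2 at 0 throughout. The smallest p-values of these 2 lists belonged to Cdh5, with 23, 7 and 4 counts against 161, 13 and 2, to Tek, with 159, 246 and 134 against 167, 247 and 421, to Ovgp1, with 2, 81 and 17 against 189, 21 and 10, and to Epcam, and all overlapped. Log2 fold changes were positive for 4 and negative for 2 of the endothelial markers tested, with a median of 0.13, and positive for 2 and negative for 1 of those of oviduct, with a median of 0.14. Ccdc113 of the oviduct list, not tested and named after its values were seen, had 0 counts in each control library. In the delipidated libraries it had 12, 14 and 9 counts. This was the pattern of 0.202% of all genes counted in every delipidated library. Pecam1 and Epcam are also transcribed by early embryos. The part of any of these cells in the counts of Vim was not tested.

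**Figure D2:**
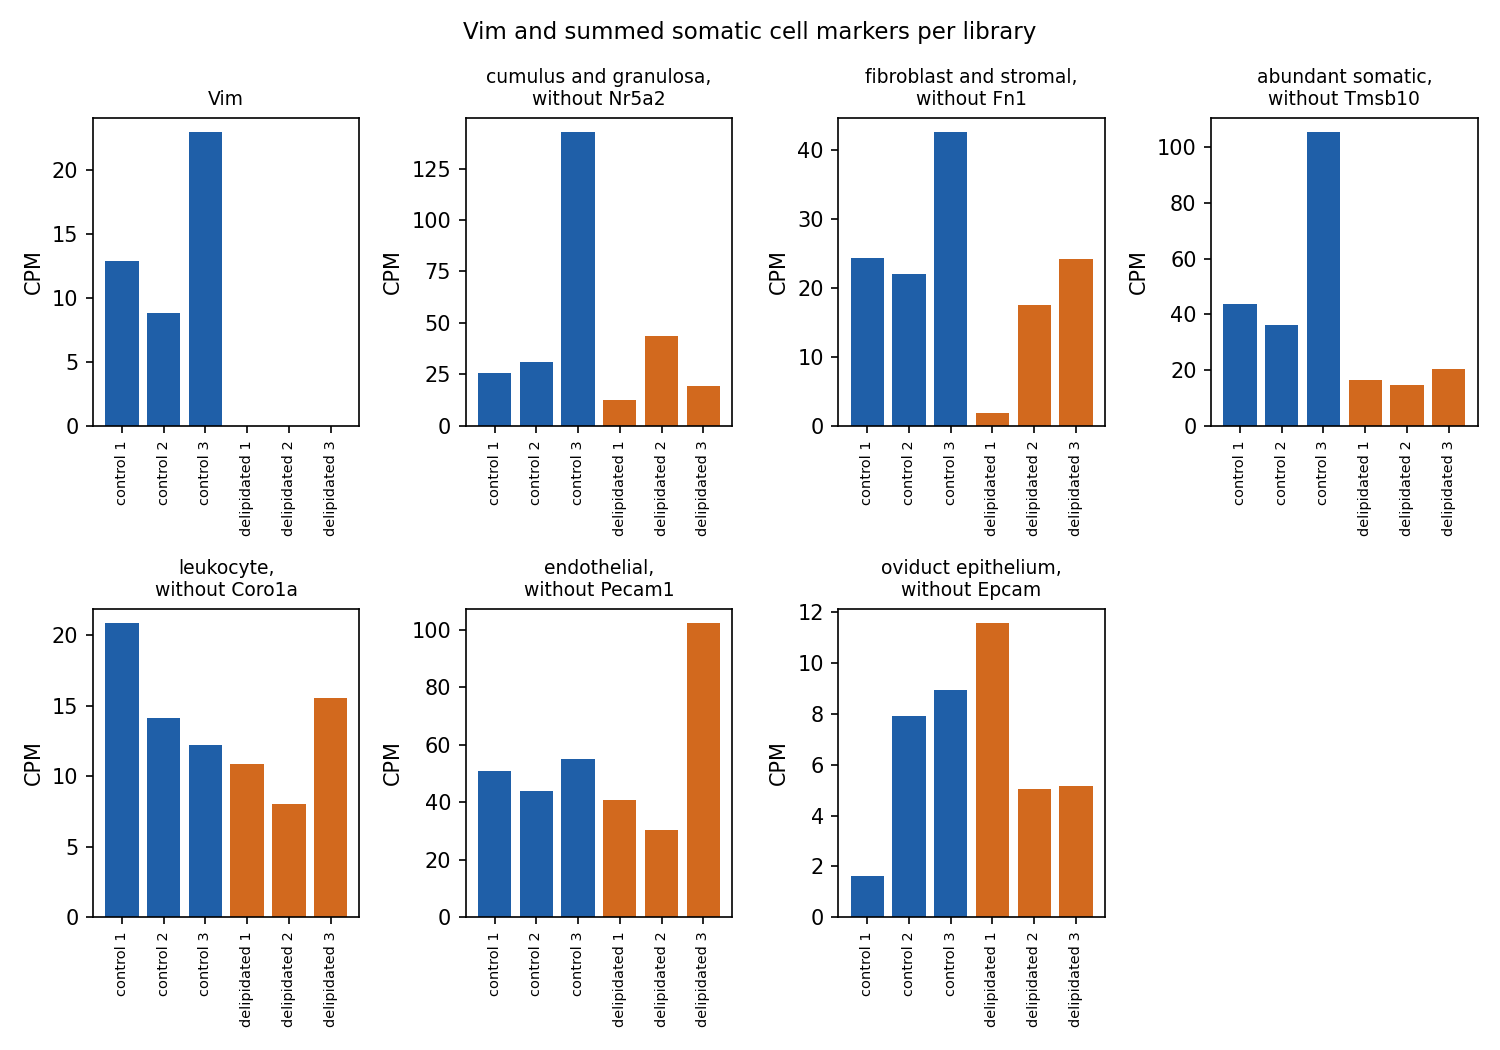
CPM in each library (y axis; control in blue, delipidated in orange) of Vim and of 6 marker lists of other cells, summed without the most abundant gene of each list. Control replicate 3 is highest for Vim and for the cumulus, fibroblast and abundant somatic lists, control replicate 1 for leukocytes at 20.9 CPM, and delipidated libraries for endothelium at 102 CPM and oviduct at 11.6 CPM.

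The groups were compared over all 16033 genes that passed the filter, of which 7 were among the 8 described here. edgeR's quasi-likelihood test called 0 genes (0%) at an adjusted p under 0.05 and a log2 fold change beyond 1, and 464 (2.89%) had an unadjusted p under 0.05, 185 higher and 279 lower. DESeq2's Wald test without a filter called 49 of the 20636 genes with an adjusted p (0.237%). Of the 6 genes tested other than Vim, 0 were called by either tool and 0 had an unadjusted p under 0.05 with edgeR. Their edgeR adjusted p-values were all 1.00. Their median log2 fold change was -0.23. The CPM of the groups did not overlap for 2 of the 6, both higher in delipidated embryos, against 613 of all genes tested (3.82%), and for 0 in the lower direction, against 809 (5.05%).

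Nes encodes nestin, a type IV protein that copolymerizes with vimentin in stem and progenitor cells. Its counts were 291, 257 and 216 in the controls against 601, 425 and 490 in the delipidated pools, or 24.7, 15.6 and 16.5 CPM against 29.8, 26.2 and 34.8 CPM. Every delipidated library was above every control library, control replicate 1 being nearest to them. The group means were 18.9 ± 4.99 and 30.3 ± 4.28 CPM (SD, n = 3 each). Its fitted log2 fold change was 0.68 (standard error, SE, 0.37), with a 95% interval from -0.13 to 1.49 (edgeR adjusted p = 1.00). The last exon, which codes for most of the protein and was split into 3 parts by the annotation, held the largest part, with 192, 178 and 99 counts against 410, 230 and 308. All 6 coding parts had counts in every control library. In the delipidated libraries 5, 5 and 6 coding parts had counts.

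Among the neurofilament genes and other relatives, Synm, the synemin gene, had 46.0, 25.7 and 30.8 CPM in the controls and 31.0, 54.4 and 47.7 CPM in the delipidated libraries. Ina, the alpha-internexin gene, had 25.1, 15.8 and 29.3 against 11.4, 22.3 and 19.8 CPM, and Nefl, the light neurofilament gene, 11.1, 26.6 and 15.5 against 21.3, 19.2 and 30.8 CPM. The groups overlapped for these 3 genes and for Nefm, Nefh, Sync and Iffo2, whose values ranged from 1.34 to 24.0 CPM. Iffo1, a filament-like gene of the nucleus, was the only one of these 8 whose groups did not overlap, as for 3.82% of all genes in this direction, with 126, 325 and 34 counts against 403, 417 and 372. In CPM its lowest delipidated value lay less than 1 CPM above its highest control value. The log2 fold change of Iffo1 was 1.12 (SE 0.61, edgeR adjusted p = 1.00). Over the 12 tested family members other than keratins and Vim, Nes and the lamins among them, 9 log2 fold changes were positive and 3 negative, with a median of 0.17.

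Krt8 and Krt18 encode the type II and type I keratins that pair in simple epithelia and are the first keratins of the embryo. The counts of Krt8 were 42, 32 and 42 in controls against 55, 36 and 30, or 3.56, 1.94 and 3.21 against 2.73, 2.22 and 2.13 CPM. The delipidated values all lay within the range of the controls. The fit gave a log2 fold change of -0.30 (SE 0.90). The exon nearest the promoter, chr15:102003898-102004342 on the reverse strand, which overlaps a gene on the opposite strand, had 7, 4 and 10 counts in the controls and 0 in each delipidated library. The exon next to it, chr15:102001417-102001625, had 14, 11 and 15 counts against 26, 15 and 3, and the last exon, at the 3′ end, had 0 in all.

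The counts of Krt18 were 49, 334 and 101 in controls against 101, 115 and 18, or 4.15, 20.3 and 7.71 against 5.01, 7.10 and 1.28 CPM. Control replicate 2 was the highest and delipidated replicate 3 the lowest, and the other 4 lay close together across the groups. In the fit over all genes its log2 fold change was -1.26 (SE 0.78), with a 95% interval from -2.97 to 0.44 (edgeR adjusted p = 1.00), and it was -0.41 without control replicate 2. In control replicate 2 and delipidated replicate 2 all 7 exons had counts, while in delipidated replicate 3 the counts lay on the last 2. Krt8 and Krt18 are neighbours on chromosome 15, Krt8 at chr15:101996711-102004342 on the reverse and Krt18 at chr15:102028216-102032026 on the forward strand. Their values did not move together: the library highest in Krt18 was the lowest in Krt8.

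Of the 50 keratin genes in the table, 45 had a count and 15 reached a mean of 1 CPM in a group, but only 6 had counts in every library. In the control libraries 32, 27 and 21 keratins had a count, and in the delipidated libraries 11, 14 and 26. Krt84, a hair keratin of type II, was the most abundant, with 713, 854 and 567 counts against 1627, 1262 and 758, or 60.4, 51.9 and 43.3 against 80.7, 77.9 and 53.8 CPM. The groups overlapped by a single library. The log2 fold change of Krt84 was 0.45 (SE 0.29). Without it, all keratins together came to 32.2, 45.8 and 39.4 CPM in the controls and 36.2, 30.1 and 31.7 CPM in the delipidated libraries.

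Krt28, a keratin of the inner root sheath, had 35, 58 and 14 counts against 286, 134 and 26, and a log2 fold change of 1.68 (SE 0.85). Delipidated replicate 3 lay within the control range. Krt42 had 21, 15 and 10 counts in the controls and 0 in each delipidated library, the pattern of 1.98% of all genes counted in every control library. With Vim, which was selected for it, and Des, this made 3 of 25 intermediate filament genes, a count from which nothing is read. Krt36 had 1, 0 and 0 counts against 18, 16 and 14. These 2 had the smallest unadjusted p-values among the keratins, and their edgeR adjusted p-values were 1.00. Krt71, named after its values were seen, did not overlap between groups in CPM, with 0.678, 1.03 and 0.764 against 0, 0.247 and 0.638, while its counts of 8, 17 and 10 against 0, 4 and 9 did. Over all genes tested, 5.05% did not overlap in this direction.

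The remaining keratins above a mean of 1 CPM were low and uneven. Krt80 had 51, 82 and 21 counts against 60, 1 and 7, Krt12 had 34, 7 and 0 against 100, 19 and 80, and Krt76 had 27, 19 and 35 against 37, 12 and 15. Krt10, Krt25, Krt72 and Krt73 were at 0 in between 1 and 3 libraries each. Krt35, Krt87 and Krt19 had nearly all of their counts in 1 library: 57 of Krt35 in delipidated replicate 3, 40 of Krt87 and 84 of Krt19 in control replicate 3. Over the 13 tested keratins, 5 log2 fold changes were positive and 8 negative, with a median of -0.74. This median stayed the same with Krt42 at the bound that 3 counts allow. Called keratins numbered 0 with edgeR or DESeq2. With edgeR, 1 in each direction had an unadjusted p under 0.05, beside 2.89% of all genes tested. These were Krt42 and Krt36, which passed the filter through the counts of 1 group, so nothing is read from them.

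Lmna encodes the A-type lamins. Its counts were 949, 2559 and 1630 in controls against 2534, 1044 and 1851 in delipidated embryos, or 80.4, 156 and 124 against 126, 64.5 and 131 CPM. The groups overlapped throughout, with the highest value in control replicate 2 and the lowest in delipidated replicate 2. Its fitted log2 fold change was -0.17 (SE 0.33), with a 95% interval from -0.88 to 0.55, and its sign changed when either of these libraries was left out. Lmna lies at chr3:88480147-88509956 on the reverse strand of GRCm38, and 15 of its 30 parts had counts in every library.

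Lamin A and lamin C are made from the same gene by splicing and share their sequence up to the middle of exon 10. The 10 parts shared by lamin A, lamin C and the germ cell form lamin C2 held 751, 2191 and 1343 counts in the controls and 2006, 854 and 1426 in the delipidated libraries. The 4 parts that only lamin A uses among the coding transcripts, 1220 bases, held 16, 55 and 32 against 33, 6 and 106 counts. The 2 parts used by lamin C or C2 and not by lamin A, 113 bases, held 0, 4 and 26 against 23, 18 and 4 counts. Both ends were thus covered far less per base than the shared parts in every library, and neither form was the higher one in all of them. The first exon of lamin C2, chr3:88493237-88493312, had 4 counts in control replicate 1 and 0 in the other 5 libraries. Delipidated replicate 3, which had most counts on the lamin A end, also had 33 to 35 counts on 3 upstream parts of Lmna-206, 1 of them shared with Lmna-204, where the other libraries had 0 to 9. The first exon of Lmna-206, chr3:88509881-88509956, had 1 count in delipidated replicate 3 and 10 in control replicate 1, so its use is not shown.

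Lmnb1 encodes the B-type lamin B1. Its counts were 3413, 4890 and 2951 in controls against 6044, 5469 and 4323 in delipidated embryos, or 289, 297 and 225 against 300.0, 338 and 307 CPM. Every delipidated library was above every control library, but the lowest of them exceeded the highest control by less than the spread within either group. The fit gave a log2 fold change of 0.22 (SE 0.19), with a 95% interval from -0.20 to 0.63 (edgeR adjusted p = 1.00), and it was 0.10 without control replicate 3. All 12 coding parts had counts in all 6 libraries. Exon 6 held the largest part everywhere, with 640, 864 and 543 against 1223, 1152 and 699 counts, and the 3′ exons were lower, the last part having 103, 106 and 89 against 73, 70 and 84 counts.

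Lmnb2 encodes lamin B2. Its counts were 24, 77 and 24 in controls against 77, 0 and 8 in delipidated embryos, or 2.03, 4.68 and 1.83 against 3.82, 0 and 0.567 CPM. A library of each group reached 77 counts, and delipidated replicate 2 had none. In the fit over all genes its log2 fold change was -0.95 (SE 1.44). With 1 library left out it ranged from -3.31, without delipidated replicate 1, to -0.38, without delipidated replicate 2. The 8 parts shared with lamin B3, a germ cell form with its own first exon, held 11, 11 and 16 counts in the controls and 0 in each delipidated library. The first exon of lamin B3, chr10:80906004-80906412, held all 8 counts of delipidated replicate 3 and 0 in the other libraries. In delipidated replicate 1, 62 of the 77 counts lay on 2 parts of the 3′ untranslated region.

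Per kb of exonic parts, Lmnb1 had the highest level, with 91.4 ± 13.3 CPM per kb in the control and 106 ± 6.78 in the delipidated embryos (SD, n = 3 each). Lmna followed with 20.6 ± 6.46 and 18.4 ± 6.35 CPM per kb. The lowest Lmnb1 value was above the highest Lmna value in both groups. Next in the controls came Krt18 with 7.66 ± 6.06, Vim with 3.14 ± 1.53, Nes with 2.95 ± 0.778, Krt8 with 1.61 ± 0.471, Lmnb2 with 0.665 ± 0.371 and Des with 0.153 ± 0.122 CPM per kb. The level of Krt18 depends on control replicate 2, without which its control mean fell from 10.7 to 5.93 CPM. Neighbours in this order overlapped between libraries for Lmna and Krt18, Krt18 and Vim, Vim and Nes, and Krt8 and Lmnb2, and did not overlap for Nes and Krt8 or for Lmnb2 and Des. In the delipidated embryos the order was Nes with 4.72 ± 0.666, Krt18 with 3.19 ± 2.11, Krt8 with 1.31 ± 0.179 and Lmnb2 with 0.341 ± 0.481 CPM per kb, then Vim and Des at 0. There Nes overlapped with Krt18 and Krt18 with Krt8, and Lmna lay above Nes in every library. These levels are relative to summed parts, in which a read can count more than once, and to lengths that include parts of retained introns, 2525 of 4743 bases for Vim and 0 for Krt8 and Krt18.

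The order depends on the parts taken. On the parts with coding sequence alone, chosen after seeing the data, the controls had 95.2 ± 13.8 CPM per kb for Lmnb1, 48.6 ± 16.5 for Lmna, 8.28 ± 4.16 for Vim, 7.66 ± 6.06 for Krt18 and 3.10 ± 0.803 for Nes, followed by Krt8, Lmnb2 and Des. Vim thus stood above Krt18 on this scale and below it on the other, and their libraries overlapped on both. Lmnb1 was the highest and Lmna the next on both scales and in both groups.

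**Figure D3:**
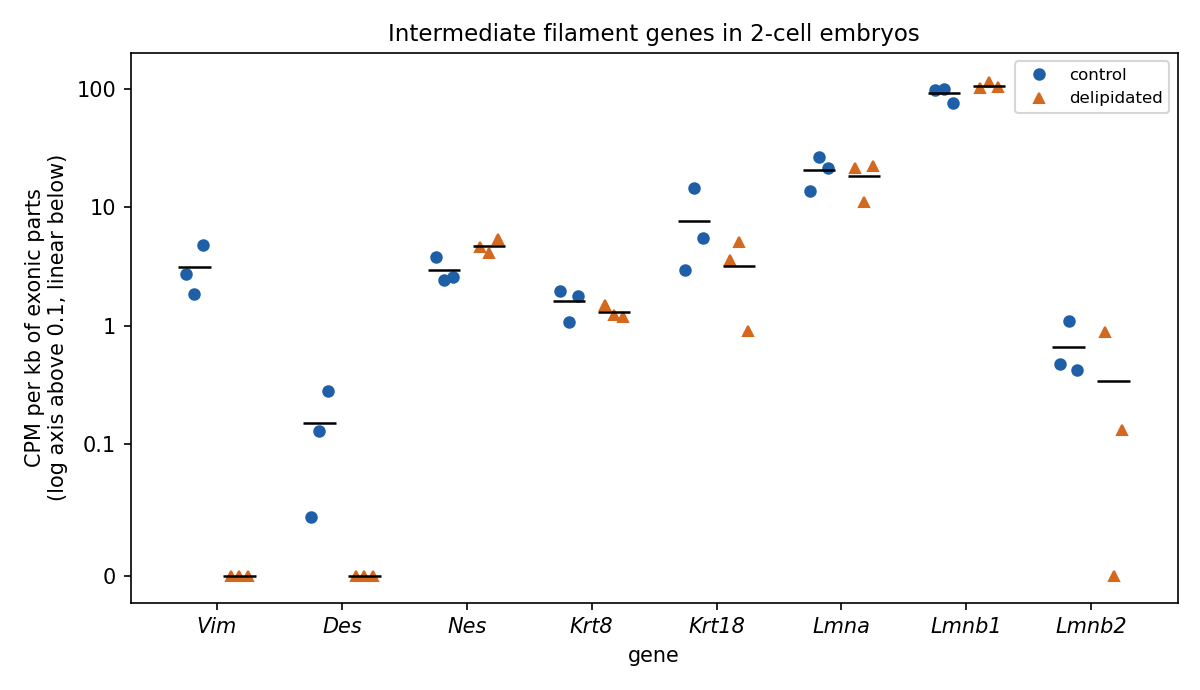
Level in CPM per kb of exonic parts (y axis, logarithmic above 0.1 and linear below) of the 8 genes in each control library (circles) and delipidated library (triangles), with bars at the group means. Lmnb1 is highest at 91.4 and 106 CPM per kb, Vim and Des are at 0 in the delipidated libraries, and the groups of Krt8, Krt18, Lmna and Lmnb2 overlap.

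Of the 3 lamin genes together, which came to between 97.8 and 128 CPM per kb in every library, Lmnb1 made up 87.3%, 78.3% and 77.8% in the controls and 81.9%, 91.2% and 82.1% in the delipidated libraries. It was 3.57 to 10.3 times as high as Lmna on all parts and 1.60 to 4.36 times on coding parts, on which its share of the 3 genes was 61.1% to 81.3%. The size of the ratio therefore depends on the parts taken, and on both scales it was highest in delipidated replicate 2. On both scales, Lmnb1 was thus the highest of the 3 lamin genes in all 6 pools of embryos.

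Genes of proteins that bind, process or anchor filaments were described in the same fit. Of 15 partners of the lamina and inner nuclear membrane, 14 were tested, 6 with positive and 8 with negative log2 fold changes and a median of -0.04, and 0 were called by edgeR or DESeq2. Mlip, a lamin-interacting gene of muscle, had 6, 4 and 0 counts against 106, 24 and 12. Every delipidated library was above every control library, as for 3.82% of all genes tested. Mlip passed the filter through its delipidated counts, so nothing is read from this. Syne2, the gene of the linker nesprin 2, was abundant and overlapped between groups, at 960, 912 and 864 against 754, 659 and 970 CPM.

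The 5 enzymes of lamin processing, which farnesylate, cleave and methylate the lamin tail, were all tested, with 3 positive and 2 negative log2 fold changes and a median of 0.09. Icmt, the methyltransferase, had 47.8, 61.2 and 43.9 against 42.6, 40.5 and 33.1 CPM, with all delipidated libraries below the controls. Its log2 fold change was -0.40 (SE 0.30). Among all genes tested, 5.05% did not overlap in this direction. Fnta, a farnesyltransferase subunit, had 40.8, 28.6 and 38.8 against 46.6, 38.9 and 41.5 CPM. Called genes numbered 0 with both tools.

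Among 14 plakins and other linkers, 13 were in the table and 10 were tested, 7 positive and 3 negative with a median of 0.04. Pkp4, a plakophilin of cell junctions, had 389, 327 and 259 against 484, 476 and 387 CPM, and its log2 fold change was 0.47 (SE 0.20, edgeR adjusted p = 1.00). It was the only gene of the 10 with an unadjusted p under 0.05 by edgeR, beside 2.89% of all genes tested. Its groups overlapped, since its lowest delipidated value lay below its highest control value. Evpl, the envoplakin gene, had 34, 8 and 62 counts against 0, 0 and 10. Of 12 kinases and phosphatases that act on filaments, all were tested, 9 positive and 3 negative with a median of 0.12. Aurkb, a mitotic kinase that phosphorylates vimentin, had 28.9, 41.9 and 27.6 against 94.1, 60.4 and 26.0 CPM, with delipidated replicate 3 below the controls. Prkaca, the catalytic subunit of protein kinase A, had 32.5, 23.9 and 19.9 against 36.3, 34.6 and 32.6 CPM. Its groups did not overlap, as for 3.82% of all genes tested in this direction. For these 2 lists as well, edgeR and DESeq2 called 0 genes.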

How the data were processed

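Per the labels and methods of the study, the authors prepared stranded total RNA libraries, and their processing notes name bcl2fastq 2.20, Trimmomatic 0.36, STAR 2.5.2b, featureCounts and build mm10. The authors deposited raw counts of reads per exonic part (425461 parts) without normalization. Counts were summed per gene identifier, 49384 of 49644 of which were named in GENCODE M21. Of 33309 parts under joined identifiers, 27957 overlapped the exons of 1 member gene and were assigned to it; the rest, with other unassigned parts, held 2.88% to 3.13% of the counts. None of the 8 genes had a joined part. A read spanning parts appears to be counted in each. This is inferred from parts far shorter than a read, such as the 6-base part of Vim, with counts like their neighbours. Where parts of 2 genes coincide on opposite strands (8 such pairs with at least 20 counts), the smaller count was typically equal to the larger (median ratio 1), so such genes may share counts.

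The comparison of groups used R 4.3.3 and edgeR 4.0.16 (filterByExpr with minimum counts of 10 and 15 in total, TMM, quasi-likelihood test, Benjamini-Hochberg adjustment), which was checked on simulated counts. Alternatives were DESeq2 1.42.0, its size factors, no filter, a replicate block, each library left out, the largest part per gene, library sizes without mitochondrial and rRNA genes, plain library totals for the level of Vim, joined parts left out and, chosen after seeing the data, levels per kb on parts with coding sequence only. Tables were made with Python 3.11.15.

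The 8 genes and all lists were chosen with earlier results of these data known. Named genes were the 8, other intermediate filament genes with a mean of at least 1 CPM in a group, from each list those called or else the 2 with the smallest unadjusted p, the most abundant gene of each marker list, and the 5 most correlated with Vim. Lists covered keratins, other family members, lamina partners, lamin processing, linkers, kinases and phosphatases, and markers of 2-cell activation, oocytes, cumulus and granulosa cells, leukocytes, fibroblasts and stroma, endothelium, oviduct epithelium and abundant somatic transcripts. Sequences are from GENCODE M21 transcripts on GRCm38.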

Additional observations from a re-analysis of the deposited data

How the results depend on the processing

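With edgeR, 0 genes were called with the filter on low counts under each other setting, while edgeR without that filter called 5 genes higher and 25 lower, and DESeq2 without it 9 higher and 40 lower. Genes with an unadjusted p under 0.05 numbered 464 in edgeR, 1211 without the filter, 1340 with DESeq2 and 380 to 992 with each library left out. The replicate numbers are not described as pairing pools, and the deviations of pools with the same number correlated with r of -0.08, 0.07 and 0.04; with the number as a replicate block, 404 genes had an unadjusted p under 0.05 and 0 were called.

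For Nes, Krt8, Krt18, Lmnb1 and Lmnb2 the log2 fold change kept its sign under every alternative that gave a value. That of Lmnb2 was -0.95 and became -2.08 with the replicate block, -0.40 without control replicate 2, -0.38 without delipidated replicate 2 and -3.31 without delipidated replicate 1. For Lmna it was -0.17, was -0.37 without control replicate 1 and became 0.07 without control replicate 2 and 0.10 without delipidated replicate 2; the cause was not tested. None of the 6 genes was called under any setting, and their adjusted p-values ranged from 0.718 to 1.00. The mean of Vim in the controls was 14.9 CPM, between 14.9 and 16.3 CPM with other scalings, and 10.8 to 17.9 CPM with each control library left out. Per kb, the mean of Vim in the controls was 3.14 CPM over all parts and 8.28 CPM over parts with coding sequence only, a setting chosen after seeing the data.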
